A study of Mus musculus with 9 samples.

Results

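Mitochondrial ribosomal proteins were taken as all genes whose symbol begins with Mrpl or Mrps followed by a number, on probe sets that carry a single gene symbol, with pseudogene names left out and the brightest probe set kept for each gene. This gave 77 genes from 85 probe sets, out of 19938 genes measured. Mrpl53 appears only on a probe set shared with another symbol and was not included. The series holds 9 liver arrays in groups of 3. The first group was wild type (C57BL/6J), another carried the Clock-D19 mutation, and the rescue group had that mutation too. Rescue mice had received 35 µg of an expression plasmid for wild-type Clock (pLIVE vector) by hydrodynamic injection into the tail vein at week 10, a route that reaches mainly hepatocytes. All animals were fed a diet with 45% fat for 5 weeks from 10 weeks of age under a 12 h:12 h light cycle, and were killed at zeitgeber time 10, counted in hours from lights on. No control plasmid or control injection is described in the labels for the other groups, so the plasmid and the injection cannot be told apart in comparisons of the rescue group.

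The mitochondrial ribosome translates the few proteins encoded by mitochondrial DNA, all of them membrane subunits of the respiratory chain and ATP synthase. Its RNAs come from mitochondrial DNA, whereas every one of its proteins is encoded in the nucleus, made in the cytosol and imported. It has a large subunit, which forms peptide bonds, and a small subunit, which holds the mRNA; some of its proteins descend from bacterial ribosomal proteins and others are found only in mitochondrial ribosomes. Names do not always give the place: Mrps30 and Mrps18a encode proteins of the large subunit, and Mrps36 encodes a component of the 2-oxoglutarate dehydrogenase complex. The set therefore held 50 large-subunit genes, 26 small-subunit genes and Mrps36.

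Levels are RMA log2 values, on which a difference of 1 is a doubling. Levels of different probe sets are not comparable with each other, so only differences between groups are compared. Replicates are separate samples, taken as separate animals since the labels describe no pooling, and their number limits the precision. A gene was called when its Benjamini-Hochberg adjusted p from limma, over all 19938 genes, was under 0.05; all values after ± are SEs of the model. All 77 genes lay above a level of 5.81, below which the dimmest 40% of genes fall. The 11 hepatocyte markers measured were all above that level too, with a summed linear signal of 54100 to 65700 per array. Clock itself read 9.24 to 9.97 in wild type, 9.89 to 10.88 in mutant and 9.41 to 10.33 in rescue; its probe set does not separate mutant from plasmid transcript and does not check the labels.

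Between the livers of Clock mutant and wild-type mice, 62 of the 77 genes did not pass the test, 11 rose and 4 fell. Differences lay above 0 in 55 of the 77 and below in 22, beside 12381 and 7557 over all 19938 genes. The called share was 19.5%, beside 15.4% of all genes tested; 14.3% rose, beside 6.37% of all genes, and 5.19% fell, beside 9.02%. The median difference was 0.10 on the log2 scale, beside 0.07 for all genes. In all 15 called genes the 3 mutant values lay outside the range of the 3 wild-type values. The 15 were picked by p on these same arrays, which favours such separation. Mutant and wild-type values did not overlap in 40.3% of the 77 genes, beside 35.7% of all genes. The called share and the split of calls depended on scaling. With every array centred on its own median, 1 gene was called higher (Mrps6) and 5 lower (Mrps22, Mrps30, Mrps36, Mrpl19 and Mrpl39), and the median difference was 0.03. The called share was then 7.79%, below the 14.5% of all genes (610 higher and 2272 lower). With quantile normalization repeated, 17 genes were called higher and 4 lower, and the median difference was 0.16. That share was 27.3%, above the 14.9% of all genes (1283 higher and 1684 lower).

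**Figure D1:**
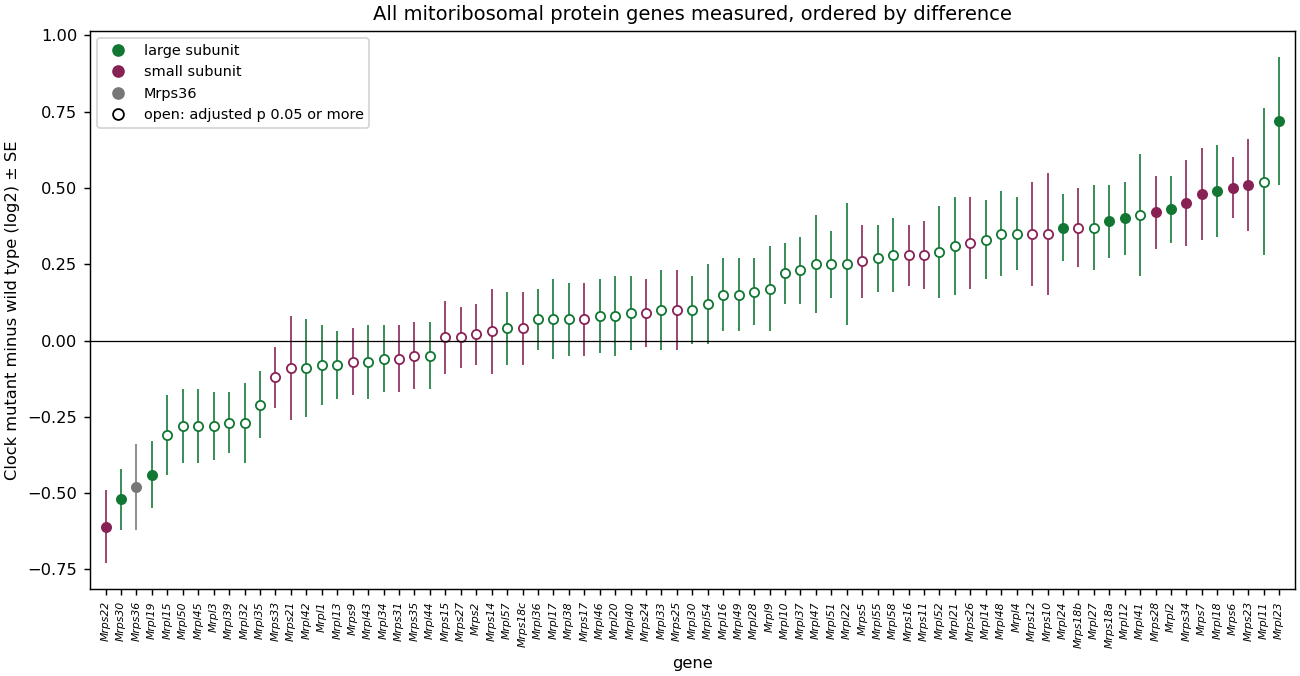
The difference between Clock mutant and wild type on the log2 scale (y axis, with its SE) is plotted for each of the 77 genes, ordered along the x axis. Filled points passed the test and open points did not; green marks the large subunit, purple the small subunit and grey Mrps36. The order runs from Mrps22 at -0.61 to Mrpl23 at 0.72.

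Calls held in all 18 alternative analyses for 3 genes: Mrps22 and Mrps30, which fell, and Mrps6, which rose. Mrps22 encodes a small-subunit protein found only in mitochondrial ribosomes. Its log2 level was 9.62, 10.07 and 9.89 in wild type, 9.24, 9.24 and 9.28 in mutant, and 9.44, 9.61 and 9.58 in rescue. The mutant values were the lowest and lay close together, and the rescue values lay between those of the other groups without touching either. Mrps22 fell by 0.61 ± 0.12 in mutant against wild type (limma adjusted p = 0.00348), a 1.52-fold difference. Mrps30, a large-subunit protein also known only from mitochondrial ribosomes, read 7.57, 7.66 and 7.72 in wild type, 7.08, 7.06 and 7.27 in mutant, and 7.36, 7.20 and 7.31 in rescue. It fell by 0.52 ± 0.10 in mutant (adjusted p = 0.00416, 1.43-fold), and rescue overlapped mutant but not wild type. Mrps6, the counterpart of bacterial S6 in the small subunit, read 7.34, 7.45 and 7.23 in wild type, 7.97, 7.76 and 7.80 in mutant, and 7.80, 7.73 and 7.68 in rescue. It rose by 0.50 ± 0.10 (adjusted p = 0.00531, 1.41-fold), and here too rescue overlapped mutant and not wild type.

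The promoters of these 3 genes and of Mrpl2, the called gene with an E-box, are given from RefSeq (GRCm38.p6), each 300 bases long on the gene's own strand, ending shortly after the start of transcription, from which positions are counted. Capitals mark an ETS core (CCGGAAG, the core bound by factors such as GABPA) or the E-box CACGTG, the sequence bound by CLOCK with BMAL1. Mrps22 (chr9:98601630-98601929, minus strand) has the ETS core at position -11. Mrps30 (chr13:118387203-118387502, minus strand) and Mrps6 (chr16:92058086-92058385, plus strand) held none of the motifs searched. Mrpl2 (chr17:46645971-46646270, plus strand; 1 of 3 overlapping windows) has the E-box at position -131. G and C make up 49.3% of the Mrps22 window, 49.3% of the Mrps30 window, 73.7% of the Mrps6 window and 61.7% of the Mrpl2 window.
Mrps22: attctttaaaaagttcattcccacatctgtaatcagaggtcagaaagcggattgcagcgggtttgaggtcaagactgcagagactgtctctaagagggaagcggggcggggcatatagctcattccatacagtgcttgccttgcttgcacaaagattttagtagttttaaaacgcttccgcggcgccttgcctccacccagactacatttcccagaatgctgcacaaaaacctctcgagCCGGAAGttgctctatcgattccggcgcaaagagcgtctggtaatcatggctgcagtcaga
Mrps30: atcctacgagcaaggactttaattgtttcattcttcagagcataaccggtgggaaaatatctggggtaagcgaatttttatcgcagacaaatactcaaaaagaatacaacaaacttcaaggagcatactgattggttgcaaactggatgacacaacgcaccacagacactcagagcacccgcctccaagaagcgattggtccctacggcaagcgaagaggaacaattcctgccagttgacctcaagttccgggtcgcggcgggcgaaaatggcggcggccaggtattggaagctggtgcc
Mrps6: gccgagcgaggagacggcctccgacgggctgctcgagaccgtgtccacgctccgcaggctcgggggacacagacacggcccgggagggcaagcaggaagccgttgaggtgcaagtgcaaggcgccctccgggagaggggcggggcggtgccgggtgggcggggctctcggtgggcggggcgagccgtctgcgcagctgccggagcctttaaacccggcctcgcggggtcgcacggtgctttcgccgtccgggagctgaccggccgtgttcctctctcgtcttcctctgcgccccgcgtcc
Mrpl2: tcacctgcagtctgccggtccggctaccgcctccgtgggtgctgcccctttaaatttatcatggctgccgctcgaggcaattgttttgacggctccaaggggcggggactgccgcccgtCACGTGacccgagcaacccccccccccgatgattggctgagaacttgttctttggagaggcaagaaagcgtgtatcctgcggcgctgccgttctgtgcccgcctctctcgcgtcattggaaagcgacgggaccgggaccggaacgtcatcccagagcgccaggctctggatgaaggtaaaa

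Among the 50 large-subunit genes 6 rose and 2 fell, with a median difference of 0.13. Mrpl2, whose bacterial counterpart lies at the peptidyl transferase centre, read 7.19, 7.11 and 6.99 in wild type, 7.62, 7.40 and 7.55 in mutant, and 7.32, 7.09 and 7.14 in rescue. It rose by 0.43 ± 0.11 (limma adjusted p = 0.0155), and the call was lost without Clock mutant replicate 1 or wild-type replicate 3, with median centring and with the span trend removed. Mrpl23, the counterpart of L23 beside the exit of the peptide tunnel, had the largest SE of the 15 called genes. Its values were 6.62, 6.34 and 6.58 in wild type, 7.51, 6.94 and 7.23 in mutant, and 6.99, 5.92 and 6.35 in rescue. The difference between mutant and wild type was 0.72 ± 0.21 (adjusted p = 0.0342).

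Mrpl18, the counterpart of bacterial L18, read 9.29, 9.0 and 9.30 in wild type, 9.78, 9.44 and 9.84 in mutant, and 9.80, 9.31 and 9.44 in rescue, and rose by 0.49 ± 0.15 (limma adjusted p = 0.0342). Rescue lay above wild type in all 3 animals and overlapped mutant. Mrpl12, of the stalk to which translation factors bind, read 7.54, 7.64 and 7.36 in wild type, 7.87, 7.98 and 7.90 in mutant, and 7.79, 7.41 and 7.67 in rescue, and rose by 0.40 ± 0.12 (adjusted p = 0.0327). Mrps18a, a copy of the S18 gene whose protein sits in the large subunit, rose by 0.39 ± 0.12 (adjusted p = 0.0403), and Mrpl24, the counterpart of L24, by 0.37 ± 0.11 (adjusted p = 0.0404). Their mutant values were 8.20 to 8.53 against 7.85 to 8.14 for Mrps18a, and 8.54 to 8.80 against 8.26 to 8.37 for Mrpl24. Mrpl19, the counterpart of bacterial L19, was the large-subunit gene that fell beside Mrps30. It read 6.98, 7.18 and 7.26 in wild type, 6.77, 6.62 and 6.72 in mutant, and 6.93, 6.93 and 7.04 in rescue. It fell by 0.44 ± 0.11 (adjusted p = 0.0119), and of the 18 alternatives the one without wild-type replicate 3 lost the call (adjusted p = 0.0599).

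Of the 26 small-subunit genes 5 rose and 1 fell, with a median difference of 0.10. The called share was 23.1%, beside 15.4% of all genes, and the difference between the subunits was not tested. Mrps28 read 7.99, 7.98 and 7.84 in wild type, 8.45, 8.24 and 8.39 in mutant, and 8.04, 7.72 and 7.70 in rescue. It rose by 0.42 ± 0.12 (limma adjusted p = 0.0252). Mrps34, needed for a stable small subunit, read 6.98, 7.10 and 6.73 in wild type, 7.33, 7.20 and 7.64 in mutant, and 6.98, 6.87 and 6.65 in rescue, and rose by 0.45 ± 0.14 (adjusted p = 0.0406). In both, the mutant values were above all 6 others. Mrps23 rose by 0.51 ± 0.15 (adjusted p = 0.0352), with 6.52, 6.40 and 6.09 in wild type and 6.79, 6.61 and 7.13 in mutant. Mrps7, the counterpart of S7, which organises the head of the small subunit, rose by 0.48 ± 0.15 (adjusted p = 0.0395), with 8.07, 7.87 and 7.87 in wild type and 8.55, 8.19 and 8.51 in mutant. Mrps36, assigned to neither subunit, read 6.72, 6.86 and 6.95 in wild type, 6.36, 6.53 and 6.20 in mutant, and 6.82, 6.31 and 6.66 in rescue. It fell by 0.48 ± 0.14 (adjusted p = 0.0282), and a second, dimmer probe set for it gave -0.52 ± 0.16 (adjusted p = 0.0375).

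**Figure D2:**
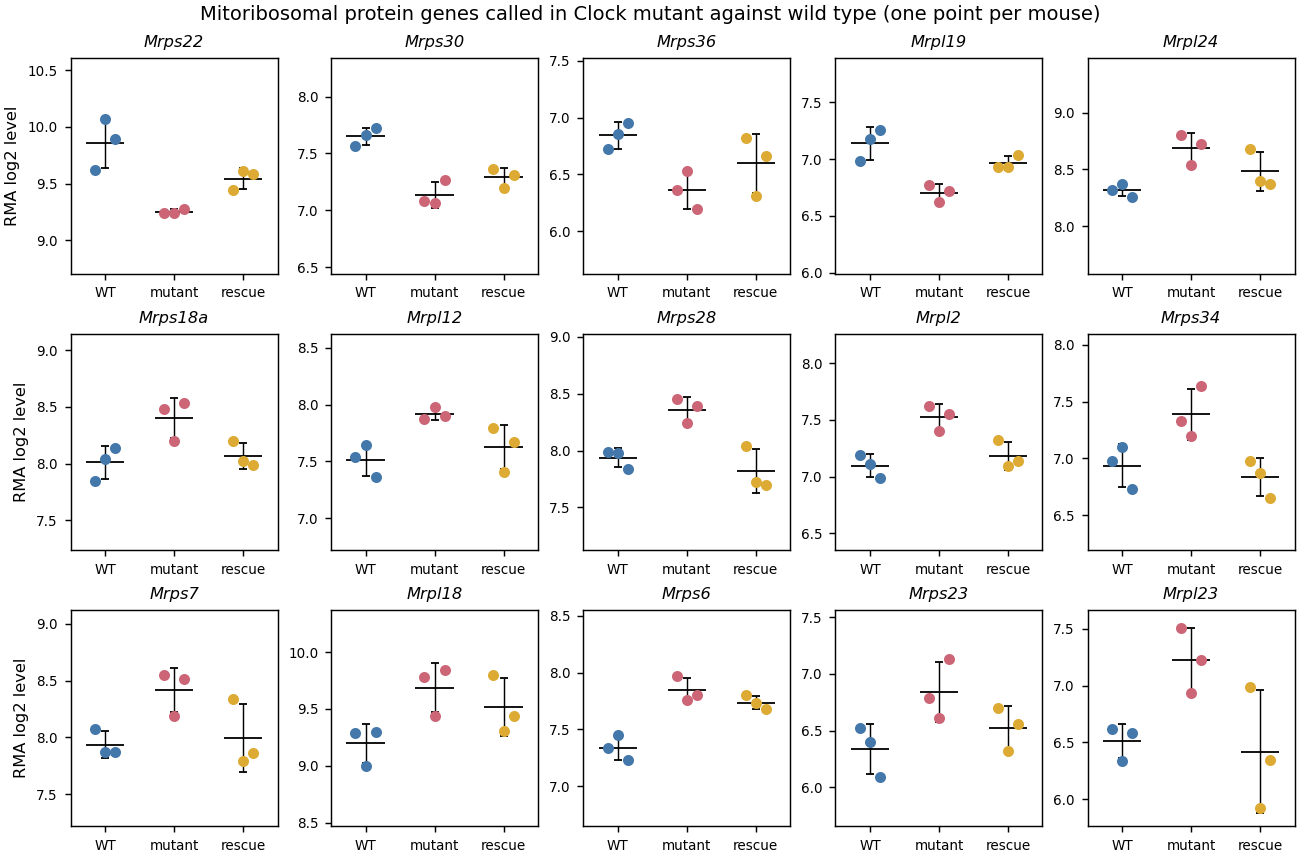
Each panel gives the RMA log2 level (y axis) of a gene called in Clock mutant against wild type, with 1 point per mouse, the mean as a bar and the SD as an error bar; every panel spans the same height on the log2 scale. In all 15 panels the mutant points lie outside the range of the wild-type points, below it for Mrps22, Mrps30, Mrps36 and Mrpl19 and above it for the other 11.

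By origin, 8 of 46 genes with a bacterial counterpart rose and 1 fell, with a median difference of 0.16. Of 28 genes known only from mitochondrial ribosomes 2 rose (Mrps23 and Mrps34) and 2 fell (Mrps22 and Mrps30), with a median of 0.07. The called shares were 19.6% and 14.3%, beside 15.4% of all genes. Mrps36 and the copies of the S18 gene Mrps18a and Mrps18b were counted in neither class. Of these Mrps18a rose, Mrps36 fell and Mrps18b was uncalled. The difference between the classes was not tested. The uncalled genes with the largest differences were Mrpl11 (0.52 ± 0.24, limma adjusted p = 0.158), Mrpl41 (0.41 ± 0.20, 0.172) and Mrpl27 (0.37 ± 0.14, 0.0892). Mrpl11, at the base of the stalk, read 7.91, 7.67 and 7.73 in wild type but 8.59, 7.74 and 8.54 in mutant and 8.59, 7.52 and 7.88 in rescue. Replicate 2 of the mutants lay within the wild-type range there.

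At the other end, group means of Mrps2, Mrps27 and Mrps35 differed by at most 0.02, 0.04 and 0.05 across the 3 groups. Mrps2, the counterpart of bacterial S2, read 7.46 to 7.69 over all 9 arrays, Mrps27 6.32 to 6.55 and Mrps35 7.04 to 7.37. The brightest probe sets of the 77 were those of Mrpl39 (mean level 10.79), Mrpl30 (10.25) and Mrps33 (9.92), and the dimmest those of Mrps11 (6.08), Mrpl28 (6.29) and Mrps27 (6.42); all 6 genes were uncalled in mutant against wild type. Mrpl39 read 10.86, 10.99 and 10.97 in wild type and 10.54, 10.76 and 10.71 in mutant, a difference of -0.27 ± 0.10 (limma adjusted p = 0.0851).

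There were 8 genes with 2 probe sets each, and in 4 of them the probe sets gave different calls in some comparison. Mrpl47, the counterpart of bacterial L29, was the case with opposite signs. Its brighter probe set, kept by the rule, read 6.64, 6.58 and 6.08 in wild type, 7.0, 6.41 and 6.64 in mutant, and 6.41, 6.28 and 6.20 in rescue, a difference of 0.25 ± 0.16 (limma adjusted p = 0.317 in a fit over probe sets). The dimmer one read 6.50, 6.69 and 6.85 in wild type, 6.06, 6.01 and 5.92 in mutant, and 6.47, 6.09 and 6.33 in rescue. On it Mrpl47 fell by 0.68 ± 0.12 (adjusted p = 0.00223), with no overlap between mutant and either other group. The platform annotation pairs the dimmer probe set with the RefSeq mRNA of Mrpl47 and the brighter one with a single other cDNA record, whereas in the other 7 genes both probe sets carry the RefSeq mRNA. For Mrpl41 the dimmer probe set was called (0.45 ± 0.12, adjusted p = 0.0188) and the kept one was not. For Mrps5 the same held (0.49 ± 0.16, adjusted p = 0.0467, beside 0.26 ± 0.12 and 0.157). Mrpl23 rose on both (0.63 ± 0.20, adjusted p = 0.0498, on the dimmer one), and its probe sets differed in rescue against mutant, where the kept one was called (adjusted p = 0.0463) and the dimmer one was not (-0.73 ± 0.20, 0.0563). Whether probes also read near-identical copies of these genes was not tested.

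**Figure D3:**
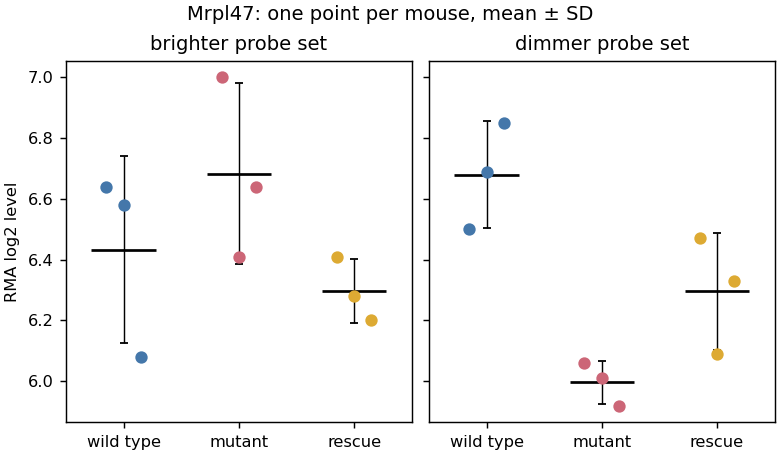
RMA log2 levels (y axis) of the 2 probe sets of Mrpl47 are shown by group, 1 point per mouse, with mean and SD. On the dimmer probe set the 3 mutant values, 5.92 to 6.06, lie below every other value; on the brighter one wild type overlaps both other groups, and rescue lies just below mutant.

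In rescue against mutant liver, 3 genes fell, none rose and 74 did not pass. That is 3.90% of the 77, beside 3.81% of all genes called in either direction and 1.2% called lower. The median difference was -0.14, beside -0.05 for all genes, with 57 of the 77 below 0, beside 12059 of all 19938 genes. This comparison and the previous one share the mutant arrays. Mrps28 fell by 0.54 ± 0.12 (limma adjusted p = 0.0238), Mrps34 by 0.55 ± 0.14 (adjusted p = 0.0415) and Mrpl23 by 0.81 ± 0.21 (adjusted p = 0.0488). For Mrps28 and Mrps34 all rescue values lay below all mutant values, while for Mrpl23 the highest rescue value, 6.99, passed the lowest mutant value, 6.94. None of the 3 calls held without Clock mutant replicate 1 or 3, or without rescue replicate 2 or 3. The largest uncalled differences were those of Mrps12, at the decoding centre (-0.43 ± 0.17, adjusted p = 0.168), Mrps7 (-0.42 ± 0.15, 0.122) and Mrps26 (-0.41 ± 0.15, 0.132). Mrps22, Mrps30, Mrpl19 and Mrps36, which fell in mutant, differed by 0.29, 0.15, 0.26 and 0.23 in rescue against mutant, and none of these passed (adjusted p = 0.167 to 0.418).

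In rescue against wild type none of the 77 genes was called by limma, beside 2.28% of all genes; 6 had an unadjusted p under 0.05, which is 7.79%, beside 14.2% of all genes. The count was 2 when the dimmest 40% of genes were left out of the fit, where 5.94% of all genes were called. The median difference was -0.03, with 36 genes above 0 and 41 below, beside 10334 and 9604 over all 19938 genes. The largest differences were those of Mrps6 (0.40 ± 0.10, limma adjusted p = 0.0627), Mrps30 (-0.36 ± 0.10, 0.0893) and Mrpl18 (0.32 ± 0.15, 0.329), each without overlap between the groups. An F test across the 3 groups called 8 of the 77 genes (Mrps22, Mrps30, Mrps6, Mrps28, Mrps34, Mrpl2, Mrpl19 and Mrpl23), beside 12.9% of all genes.

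The set did not move evenly over the animals of a group. Counted per array, 57, 36 and 67 of the 77 genes lay above their own mean over all arrays in the mutants, 54, 13 and 18 in rescue, and 37, 34 and 29 in wild type. The median deviation was 0.12, -0.03 and 0.15 in mutant, 0.09, -0.14 and -0.11 in rescue, and -0.01, -0.03 and -0.05 in wild type. Rescue replicate 1 thus lay with mutant replicates 1 and 3, and mutant replicate 2 within the wild-type range. Cytosolic ribosomal proteins, which share no subunit with the mitochondrial ribosome, gave 0.27, 0.15 and 0.22 in mutant and 0.09, -0.29 and -0.13 in rescue. Nuclear-encoded subunits of the respiratory chain and ATP synthase gave 0.28, 0.07 and 0.25 in mutant and 0.11, -0.23 and -0.13 in rescue. In both groups, too, rescue replicate 1 was the highest rescue array. Of 60 cytosolic ribosomal genes 19 rose and none fell in mutant, with a median of 0.32. Of 82 respiratory chain and ATP synthase genes 26 rose and none fell, with a median of 0.33. That is 31.7% of each set, beside 6.37% of all genes called higher. After centring each array on its median, 10 of the 60 and 14 of the 82 still rose, beside 1 of the 77 and 610 of all 19938 genes. The difference between these sets and the mitochondrial ribosomal proteins was not tested.

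**Figure D4:**
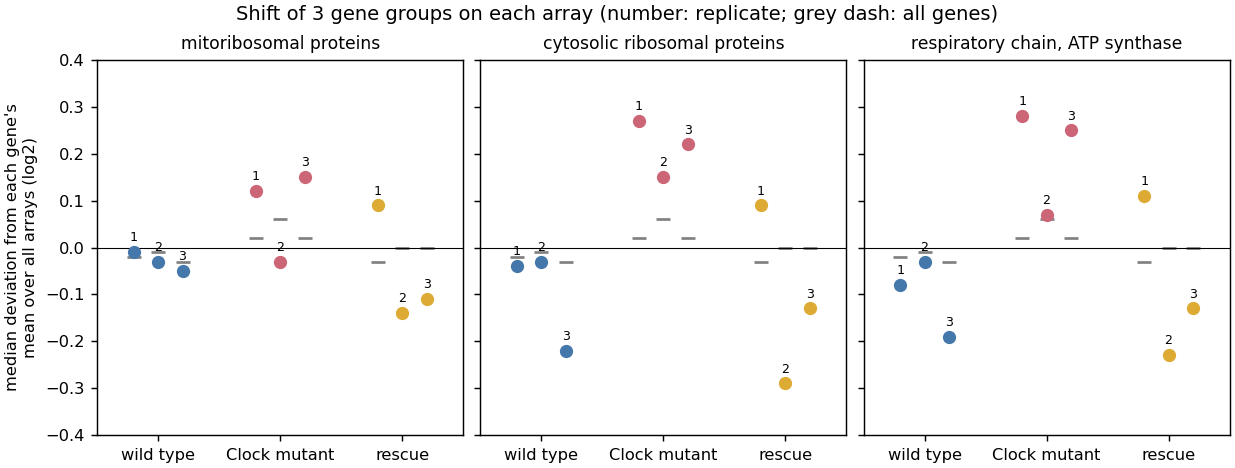
The median deviation of a gene set from each gene's mean over all arrays (log2, y axis) is plotted per array for the 77 mitochondrial ribosomal proteins, 60 cytosolic ribosomal proteins and 82 respiratory chain and ATP synthase subunits; numbers are replicates and grey dashes the median of all genes. Mutant arrays lie at -0.03 to 0.15 in the first set, at 0.15 to 0.27 in the second and at 0.07 to 0.28 in the third.

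Counts of rising genes moved far more with the processing than counts of falling ones. Across the 18 alternatives to the mutant against wild type fit, the number that rose was between 1 and 17 and the number that fell between 2 and 5. Of the genes that rose beside Mrps6, Mrpl2 and Mrps28 lost the call in 4 of the 18 alternatives, Mrps7 in 6, Mrpl12, Mrpl18, Mrpl24, Mrps23 and Mrps34 in 7, Mrpl23 in 8 and Mrps18a in 9. Of the genes that fell, Mrps36 lost it in 4 and Mrpl19 in 1. Leaving out wild-type replicate 3 left Mrps22, Mrps30 and Mrps6. Leaving out Clock mutant replicate 1 left those 3 and Mrpl19, and leaving out Clock mutant replicate 3 left those 4 and Mrpl2. Leaving out wild-type replicate 1 or 2 left 9 calls each.

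**Figure D5:**
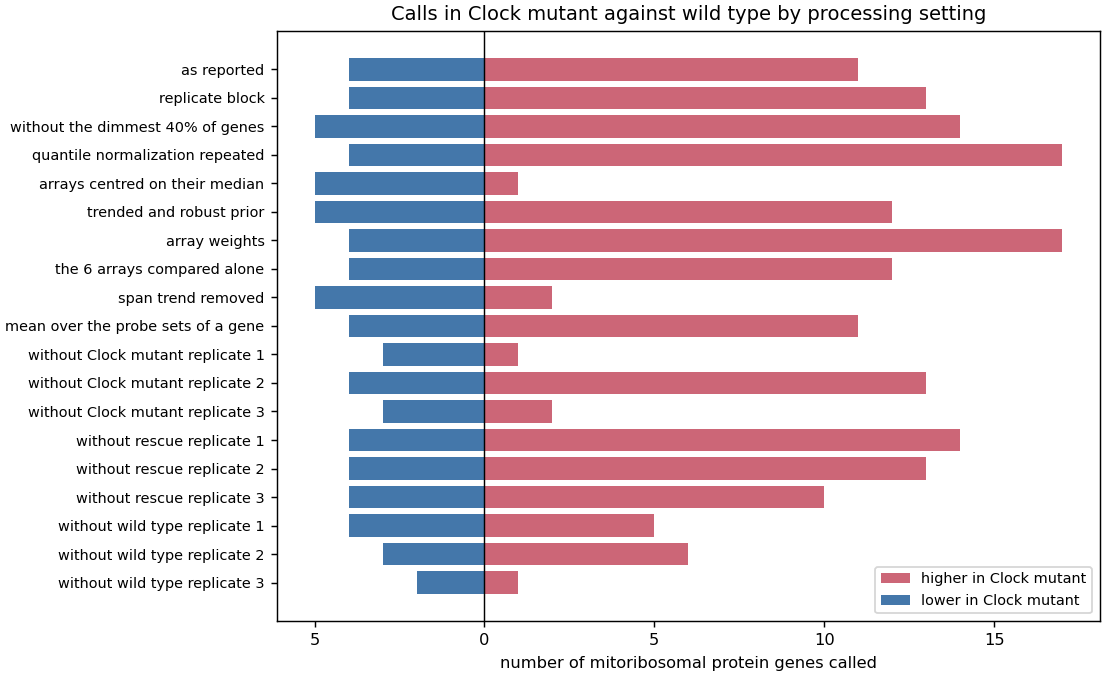
Bars give the number of the 77 genes called higher (to the right) and lower (to the left) in Clock mutant against wild type, for the analysis as reported and each of 18 alternatives. The bars for higher genes run from 1 to 17 and those for lower genes from 2 to 5.

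Genes that act with the mitochondrial ribosome were counted from lists set beside the 77. Over all genes 15.4% were called in mutant against wild type, 6.37% higher and 9.02% lower. Ptcd3, Dap3, Chchd1 and Gadd45gip1 also encode subunits of this ribosome. Ptcd3, an RNA-binding protein of the small subunit, read 8.54, 8.36 and 8.80 in wild type, 7.94, 7.93 and 8.02 in mutant, and 8.42, 8.25 and 8.12 in rescue. It fell by 0.60 ± 0.12 (limma adjusted p = 0.00487), with no overlap, and the other 3 were uncalled. Among 26 genes for assembly of the ribosome and modification of its RNA, 3 fell and 3 rose, a called share of 23.1%. The GTPase genes Noa1 (-0.75 ± 0.11, adjusted p = 0.000431) and Gtpbp10 (-0.73 ± 0.10, 0.000455) fell, as did Mterf3 (-0.61 ± 0.10, 0.00127), while Rpusd3 (0.46 ± 0.11, 0.00986), Trub2 (0.39 ± 0.12, 0.0418) and Mtg2 (0.37 ± 0.10, 0.0224) rose. Gtpbp10 was 0.45 ± 0.10 higher in rescue than in mutant (adjusted p = 0.0318), and Noa1 was lower in rescue than in wild type (-0.56 ± 0.11, adjusted p = 0.011). Of the 18 alternatives, 7 lost this Gtpbp10 call, among them leaving out any mutant or rescue array, and 3 lost this Noa1 call. In mutant against wild type Trub2 lost the call in 9, Mtg2 in 6 and Rpusd3 in 1. Ptcd3, Noa1, Gtpbp10 and Mterf3 lost it in none. Noa1 lies on the same chromosome as Clock, with 15 measured genes between them, so an effect of the Clock locus on its neighbours cannot be told apart there.

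Of 15 mitochondrial translation factors, Taco1, which promotes translation of the COX1 mRNA in human cells, rose (0.46 ± 0.10, limma adjusted p = 0.00679). Guf1 (-0.40 ± 0.11, 0.0246) and the elongation factor Gfm1 (-0.36 ± 0.10, 0.0279) fell. Of 16 aminoacyl-tRNA synthetases that work in mitochondria, Fars2, for phenylalanine, rose (0.48 ± 0.11, 0.0101) and Iars2, for isoleucine, fell (-0.41 ± 0.12, 0.0345). Of 13 genes for transcription and upkeep of mitochondrial DNA, 3 fell and Twnk, the DNA helicase, rose (0.37 ± 0.11, 0.0413). Trmt10c, a subunit of mitochondrial RNase P, read 9.24, 9.14 and 9.32 in wild type, 8.07, 8.19 and 8.40 in mutant, and 8.77, 8.75 and 8.68 in rescue. It fell by 1.02 ± 0.11 in mutant (adjusted p = 6.12e-05), rose by 0.51 ± 0.11 in rescue against mutant (0.0223) and was lower in rescue than in wild type (-0.50 ± 0.11, 0.0249). The transcription factors Tfb2m (-0.63 ± 0.10, 0.000895) and Tfam (-0.44 ± 0.12, 0.0282) also fell in mutant. Of the 18 alternatives, the mutant call was lost in 7 for Twnk, 6 for Iars2, 5 for Tfam and Guf1 and 4 for Gfm1. It was lost in none for Taco1, Fars2, Trmt10c and Tfb2m. Each of the calls of Trmt10c that involve rescue was lost in 5. Of the mitochondrial transcripts themselves, COX2 differed by -0.22 ± 0.15 (0.346) and ND3 by -0.11 ± 0.14 (0.612); both were picked after values were seen.

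Of 11 nuclear regulators of mitochondrial genes, 3 fell in mutant (27.3%, beside 9.02% of all genes) and none rose. These were Ppargc1a, a coactivator of mitochondrial biogenesis (-0.38 ± 0.11, limma adjusted p = 0.0272), Yy1 (-0.37 ± 0.10, 0.0209) and Myc (-1.41 ± 0.40, 0.0273). Of the 18 alternatives, Ppargc1a lost the call in 4 and Yy1 and Myc in 5 each. For Myc the highest mutant value, 8.59, passed the lowest wild-type value, 8.15. Nrf1 (0.21 ± 0.11, 0.218) and Gabpa (-0.28 ± 0.10, 0.0779), whose binding sequences were searched in the promoters, were uncalled.

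Promoter windows were in the RefSeq tables for 68 of the 77 genes, as 74 windows, and each motif was searched on its own on both strands. The classes by motif are therefore not disjoint. Mrpl17, Mrpl22, Mrpl33 and Mrps18b held both an NRF1 and an ETS core, and Mrps18c an ETS core and an E-box. The ETS core CCGGAAG was in 33.8% of these windows, beside 12.1% of windows of the genes tested and 8.86% of all windows. The NRF1 core GCATGCGC was in 10.8%, beside 3.79% and 2.71%, and the E-box CACGTG in 9.46%, beside 8.26% and 7.15%. These 7 windows with an E-box belong to 5 genes, as 3 overlapping windows of Mrpl2 hold the same E-box. Of the 25 genes with an ETS core 3 rose and 1 fell, with a median difference of 0.25; of the 43 with a window and no ETS core 6 rose and 2 fell (median 0.10). None of the 8 with an NRF1 core was called by limma (median 0.14); of the 60 without one 9 rose and 3 fell (median 0.12). Of the 5 with an E-box, Mrpl2, Mrpl20, Mrpl36, Mrpl37 and Mrps18c, the call was that of Mrpl2 alone; their median was 0.08, and their differences ran from 0.04 to 0.43. Of the 63 without an E-box 8 rose and 3 fell (median 0.15). Over all genes 15.4% were called, and the differences between genes with and without a motif were not tested.

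These are short genes. The span from first to last base had a median of 7.75 kb in the 77, beside 17.7 kb over all genes, and 65 of the 77 lay below the latter. Span was set against the mutant minus wild type difference: the rank correlation (Spearman) was -0.236 over 19852 genes with a known span and -0.197 over the 77; both are across genes measured on the same arrays, which are not independent replicates. With the trend over span removed from each array, 2 of the 77 rose (Mrps6 and Mrps28) and 5 fell, and the median difference was 0.02; that is 9.09% called, beside 13.3% of all genes. By chromosome, a grouping made after values were seen, all 8 genes on chromosome 17 had differences above 0 (0.16 to 0.49), and 4 of them rose (Mrpl2, Mrpl18, Mrps18a and Mrps34). Of all 936 genes measured on that chromosome 8.97% rose and 639 lay above 0, with a median of 0.11. Of the 11 of the 77 genes on chromosome 11, 10 lay above 0 and 3 rose. On chromosome 7 all 6 lay above 0 and 1 rose, and on chromosome 13, 2 of 5 fell. Elsewhere 2 of 5 rose on chromosome 3 and 1 of 3 on chromosome 16, while 1 of 6 fell on chromosome 6 and 1 of 3 on chromosome 9. The other chromosomes held no called gene of the 77. Except for chromosome 17, no share over all genes of a chromosome was computed. Over the whole array 12381 of 19938 genes lay above 0, and a difference between chromosomes was not tested.

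Markers of some other liver cell types moved between the same groups. In mutant against wild type the called share was 63.6% for Kupffer cell and macrophage, 50.0% for endothelial and 37.5% for stellate markers. It was 12.5% for lymphocyte and neutrophil and 9.09% for hepatocyte markers, beside 15.4% of all genes. Of 11 Kupffer cell and macrophage markers 7 fell in mutant, with a summed linear signal of 3810 to 5120 in wild type, 1570 to 1670 in mutant and 2060 to 2690 in rescue, and Marco below the 5.81 level in every group. Of 12 endothelial markers 6 fell (3060 to 3430 in wild type, 2050 to 2220 in mutant, 2360 to 2950 in rescue). Egfl7 was the 1 endothelial marker above 0 (0.34 ± 0.11, uncalled), with mutant values above all wild-type values. Of 8 stellate cell markers 3 fell (2990 to 3300, 2250 to 2390 and 2800 to 3060), with Des below the level and a median difference of -0.11. The uncalled Pdgfrb, Col1a1 and Col3a1 went the other way (0.17, 0.09 and 0.20), with mutant values above all wild-type values. Summed signals weigh the brightest probe sets most, here Vsig4 (mean level 10.23) among Kupffer cell and macrophage markers and Dcn (10.77) among stellate markers. Of 8 lymphocyte and neutrophil markers 1, Cd3g, fell; their median difference was -0.06 and their summed signal 313 to 376 over all arrays, with 6 of the 8 below the level. Of 11 hepatocyte markers Asgr1 rose and the other 10 were uncalled. Their part in the differences of mitochondrial ribosomal protein genes was not tested, and in whole liver fewer cells of a type cannot be told apart from less RNA per cell.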

How the data were processed

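Total RNA from 9 livers was labelled with biotin and hybridised to Affymetrix arrays. The deposited values are log2 levels per probe set, made by the authors with RMA in Affymetrix Expression Console per the submitters' processing notes, their versions not given in the sources used here. This procedure equalises the distribution of probe values between arrays, so a change shared by most genes can be lost. A maximum of 13.86 shows the base of the logarithm to be 2.

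Of 35556 probe sets, 21789 had 1 symbol in the platform annotation, 1621 several and 12146 none; 21698 Entrez identifiers matched the RefSeq gene table (GRCm38.p6), and no symbol changed. The brightest probe set was kept for the 999 genes that had more than 1. All 9 arrays entered a single linear model in limma 3.58.1 (R 4.3.3; 6 residual and 8.475 prior degrees of freedom), with 3 contrasts and an F test and Benjamini-Hochberg adjustment over 19938 genes. The model was tested on simulated data. Figures used matplotlib 3.10.9 and pandas 2.3.3 in Python 3.11.15.

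The members and the 11 other gene lists (135 of 147 symbols measured) were chosen with earlier results of these data known. Genes were named by rule: all called members (at most 24 per comparison), the 3 uncalled ones of largest difference, the 3 brightest, 3 dimmest, 3 most and 3 least variable, those with discordant probe sets, and up to 3 called genes per list and direction. Other genes were named where a count or motif singled them out, after values were seen.

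As alternatives, the replicate number was used as a block, and the model was refitted with no dim genes, quantile normalization repeated, median centring, a trended robust prior, array weights, the 6 compared arrays alone, removal of the span trend (lowess span 0.3), the mean over probe sets, and each array left out. A fit over probe sets was added after the data were seen. The labels give no batch.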

Additional observations from a re-analysis of the deposited data

How the results depend on the processing

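Alternative values were counted for the named genes that were called and for the 3 uncalled members of largest difference per comparison. That choice favours a stable sign. Of these 1295 values, 1067 kept direction and side of the threshold, 211 lost the call, 17 gained it and none turned sign. Genes named for other reasons were not counted, among them Mrpl47, whose probe sets differ in sign. In mutant against wild type, the 15 calls among the 77 genes became 6 with median centring (median difference 0.03, beside 0.10), 7 with the span trend removed (median 0.02) and 3 to 18 with an array left out (3 without wild-type replicate 3, 4 without Clock mutant replicate 1, 5 without Clock mutant replicate 3, 9 without wild-type replicate 1 or 2). They increased to 17 higher and 4 lower with quantile normalization repeated (median 0.16), and array weights also raised the count. In rescue against mutant, the 3 calls became 1 with median centring, with the span trend removed and with the 6 arrays alone, 9 with array weights, and 0 to 5 with an array left out (0 without Clock mutant replicate 1 or 3 or rescue replicate 2 or 3, 1 without wild-type replicate 1, 5 without rescue replicate 1). In rescue against wild type, 0 calls became 2 without dim genes, 1 with quantile normalization repeated and 1 with the trended robust prior, and stayed 0 whichever array was left out. The 8 calls of the F test became 13 without dim genes, 17 with quantile normalization repeated, 18 with array weights and 3 to 11 with an array left out (3 without wild-type replicate 3 or Clock mutant replicate 1 or 3, 5 without wild-type replicate 2 or rescue replicate 3). Where a setting changed these counts, the cause was not tested, except that leaving out an array lowers the number of samples.

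With the replicate number as a block there were 17 calls in mutant against wild type (13 higher, 4 lower), 3 in rescue against mutant, 0 in rescue against wild type and 10 in the F test. Whether the numbers pair the animals is not settled. Correlations of deviations ran from -0.111 to 0.191 between same-numbered arrays of different groups, most of them above 0. Between arrays of different numbers they ran from -0.256 to 0.179, with many of either sign. Deviations within a group add up to 0 for each gene, so correlations of same-numbered and of other arrays are not independent. In the analysis as reported, no difference under 0.37 in size was called among the 77 genes in mutant against wild type, so an uncalled gene is not shown to be unchanged. Some alternatives called smaller ones, such as Mrpl37 at 0.31 with quantile normalization repeated and Mrpl39 at -0.33 with the span trend removed.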
